A study of Homo sapiens with 4 samples.

Results

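Accessible chromatin was described around 6 of 62663 annotated genes, the microRNA host genes MIR205HG, MIR200CHG, MIR34AHG, MIR31HG, MIR17HG and MIR22HG. They were chosen by name, as hosts of microRNAs known from epithelia or from the p53 family of transcription factors, and the rule that assigned peaks to them used no difference between the lists. A peak was assigned to a host gene when its summit, the position of highest coverage, lay in the gene body or within 50 kb of a transcription start site (TSS) of that gene in GENCODE release 44. In this way 61 of 101142 peaks of the CTR list and 64 of 109486 peaks of the p63 list were found on chromosomes 1 to 22, X and Y.

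ATAC-seq, in which a transposase inserts sequencing adapters into open DNA, had been carried out in BJ cells, an established human fibroblast line. All cells carried a lentiviral reverse tetracycline transactivator (rtTA) and were treated with doxycycline, a drug that switches on a second, retroviral construct. In the CTR group this construct encoded KLF4 alone, with a Myc tag ahead of a self-cleaving peptide, and in the p63 group Myc-tagged ΔNp63α took the place between the tag and that peptide. The lines were polyclonal, and the 2 replicates of each group were separate inductions of the same lines. KLF4 was therefore expressed in both groups, and the comparison asks which regions were open with ΔNp63α in addition to KLF4. Both replicates of a group had been joined by the authors into 1 deposited peak list, so that no value per replicate is given, no spread between replicates could be computed, and no test was made. Every interval below is a 95% interval that covers counting error only.

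ΔNp63α is the main p63 isoform of the basal layer of stratified epithelia and binds the same family of DNA sites as p53. MicroRNAs are short RNAs that are cut from a hairpin in a longer transcript and pair with target mRNAs mainly through bases 2 to 8, the seed. MiR-205 and the miR-200 family are typical of epithelial cells, where they lower the mesenchymal repressors ZEB1 and ZEB2, whereas the miR-34 family is known as a direct target of p53. MiR-31 is known from proliferating keratinocytes and wounds, the MIR17HG cluster as a growth-promoting transcript activated by MYC, and miR-22 as a microRNA found in many tissues.

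The mature microRNAs of the 6 hosts are shown because the peaks below are described by their distance from these sequences. They were taken from RefSeq (GRCh38.p14) and are printed 5′ to 3′ with the seed in capitals. All hosts had an entry, and the 6 hairpins of MIR17HG are given by the arm usually described as the guide.
miR-205-5p of MIR205HG, chr1:209432166-209432187, plus strand: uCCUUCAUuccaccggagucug
miR-200c-3p of MIR200CHG, chr12:6963742-6963764, plus strand: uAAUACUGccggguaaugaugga
miR-141-3p of MIR200CHG, chr12:6964155-6964176, plus strand: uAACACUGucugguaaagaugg
miR-34a-5p of MIR34AHG, chr1:9151735-9151756, minus strand: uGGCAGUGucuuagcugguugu
miR-31-5p of MIR31HG, chr9:21512158-21512178, minus strand: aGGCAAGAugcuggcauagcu
miR-17-5p of MIR17HG, chr13:91350618-91350640, plus strand: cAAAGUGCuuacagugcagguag
miR-18a-5p of MIR17HG, chr13:91350756-91350778, plus strand: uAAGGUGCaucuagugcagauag
miR-19a-3p of MIR17HG, chr13:91350939-91350961, plus strand: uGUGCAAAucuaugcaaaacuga
miR-20a-5p of MIR17HG, chr13:91351072-91351094, plus strand: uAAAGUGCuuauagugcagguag
miR-19b-3p of MIR17HG, chr13:91351245-91351267, plus strand: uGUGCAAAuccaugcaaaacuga
miR-92a-3p of MIR17HG, chr13:91351361-91351382, plus strand: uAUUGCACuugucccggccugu
miR-22-3p of MIR22HG, chr17:1713914-1713935, minus strand: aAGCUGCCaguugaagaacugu
MiR-17-5p and miR-20a-5p shared the seed AAAGUGC, and miR-19a-3p and miR-19b-3p shared GUGCAAA. The seeds of miR-200c-3p and miR-141-3p differed from each other, and each is found again in the other miR-200 cluster, AAUACUG in miR-200b-3p and miR-429 and AACACUG in miR-200a-3p.

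A peak was called open at a −log10 q of at least 10, where q is the false discovery rate of the authors' peak caller. A peak without an overlapping peak at this threshold in the other list was CTR-only or p63-only by its list, and every other open peak was named shared. At the threshold 38 CTR peaks and 39 p63 peaks lay at the hosts. Of the p63 peaks 7 were p63-only (17.9%, Wilson interval 8.98 to 32.7%), against 23.9% of all p63 peaks at the threshold. Of the CTR peaks 7 were CTR-only (18.4%, 9.22 to 33.4%), against 16.5% of all CTR peaks. Both intervals contained the share of the whole list. They treat peaks as independent, although 5 of the 7 p63-only peaks lay at MIR205HG, so no conclusion about the hosts as a group is drawn from them. Merging overlapping peaks of both lists gave 69 regions, of which 31 were shared, 7 p63-only, 7 CTR-only and 24 below the threshold in whichever list held them.

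**Figure D1:**
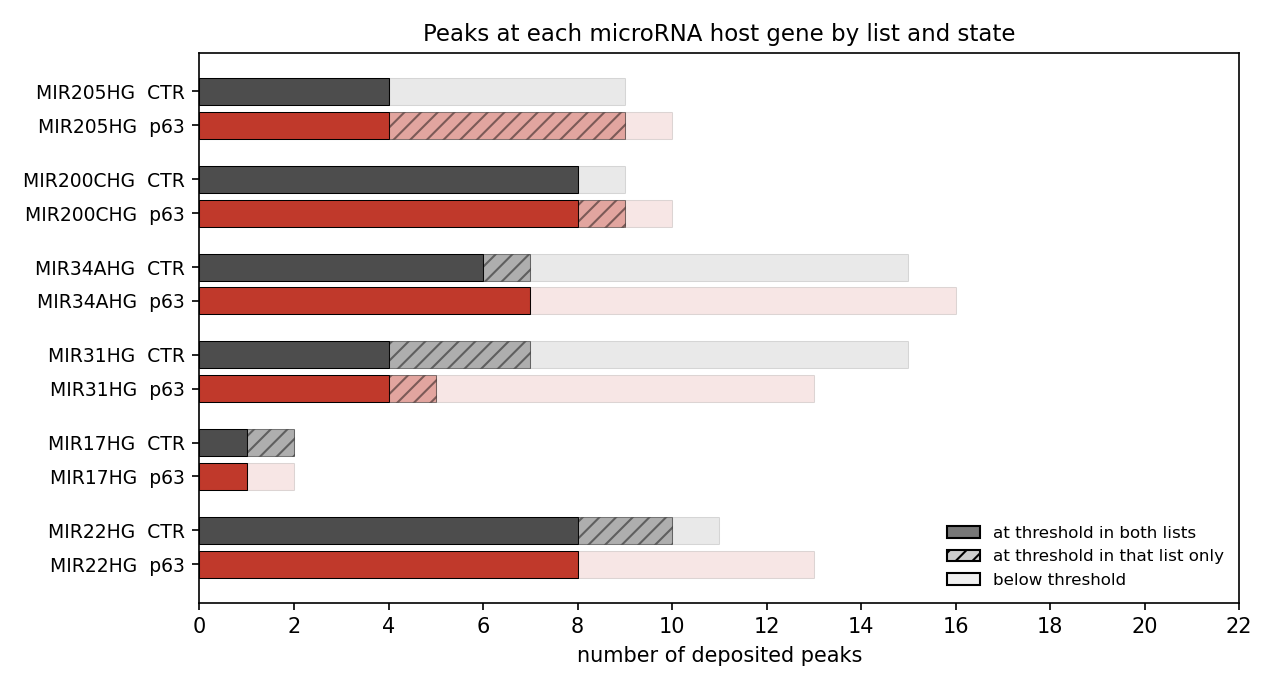
Number of deposited peaks at each host gene in the CTR (grey) and p63 (red) list, divided into peaks at the threshold in both lists, at the threshold in that list only (hatched) and below the threshold. MIR205HG holds 5 of the 7 p63-only peaks, and none of its 4 CTR peaks at the threshold is CTR-only.

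The list-only peaks were spread unevenly over the hosts. MIR205HG held 5 of the 7 p63-only peaks, MIR200CHG and MIR31HG held 1 each, and MIR34AHG, MIR17HG and MIR22HG held none, so that 3 of 6 hosts had a p63-only peak, against 47.3% of all annotated genes by the same rule. CTR-only peaks were found at MIR31HG (3), MIR22HG (2), MIR34AHG (1) and MIR17HG (1), which is 4 of 6 hosts against 33.0% of all annotated genes. Without MIR205HG, left out after seeing the data, the p63-only share was 2 of 30 (6.67%, 1.85 to 21.3%), against 23.9% of the whole list. The CTR-only share was then 7 of 34 (20.6%, 10.3 to 36.8%), against 16.5%. The p63-only count over the hosts thus rested on MIR205HG.

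Some list-only peaks had a weaker counterpart in the other list and others had none. Of the 39 open p63 peaks 3 (7.69%) overlapped no CTR peak of any −log10 q (absent), against 12.0% of all open p63 peaks, and all 3 lay at MIR205HG. Counted among p63-only peaks alone, these are 3 of 7 at the hosts and 50% in the whole list. Of the 38 open CTR peaks 1 (2.63%) was absent from the p63 list, at MIR31HG, against 3.29% of all open CTR peaks, or 1 of 7 CTR-only peaks against 20% in the whole list. The absent share of the hosts was thus not above that of the lists. The lowest −log10 q of an open peak at the hosts was 10.17 in the CTR list (MIR34AHG) and 11.33 in the p63 list (MIR31HG). The highest below the threshold was 9.10 in the CTR list (MIR205HG) and 9.49 in the p63 list (MIR22HG). Several peaks therefore lay close to the threshold, and their coverage is given beside their state. At the edge of the 50 kb window the farthest open peaks included lay 48639 bp (CTR) and 48592 bp (p63) from a TSS of MIR200CHG, and the nearest ones left out lay 53129 bp (CTR, MIR34AHG) and 53173 bp (p63, MIR22HG) away.

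The whole number of reads that covered each summit, given below as reads, was solved from the peak caller's fold enrichment and −log10 p. This assumed that the fold enrichment is the summit pileup plus 1 over the local background plus 1, and that p comes from a Poisson distribution, as is usual for MACS2. The background of a list was taken as the lowest local background solved for any of its peaks, 1.18 reads for CTR and 1.13 for p63. The p63/CTR ratio of a region is the ratio of its summit reads after each was divided by its list's background. Differences in local background between regions or lists are left uncorrected by this ratio. Over all 47412 shared peaks the median of this ratio was 1.045, and the central 90% lay between 0.696 and 1.671. BJ cells in both groups had a promoter peak at 12 of 12 fibroblast marker genes. Of the 11 keratinocyte marker genes found in the annotation, 4 had a promoter peak in CTR and 6 in p63, where KRT5 and EPCAM were added, so the keratinocyte set was open only in part.

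MIR205HG (ENSG00000230937.13, chr1:209428817-209432848, plus strand) gives rise to miR-205 and lay far from coding genes, with CAMK1G as the nearest one at every peak. It had 4 open CTR peaks and 9 open p63 peaks, of which 5 were p63-only (55.6%, 26.7 to 81.1%), against 23.9% of all open p63 peaks. The interval treats the 9 neighbouring peaks of this locus as independent. MIR205HG was also the host with the most p63-only peaks, so no conclusion is drawn from the interval. As many p63-only peaks or more were found at 1.39% of all annotated genes. None of the CTR peaks, open or below the threshold, lay within 3 kb of one of its 10 TSSs.

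**Figure D2:**
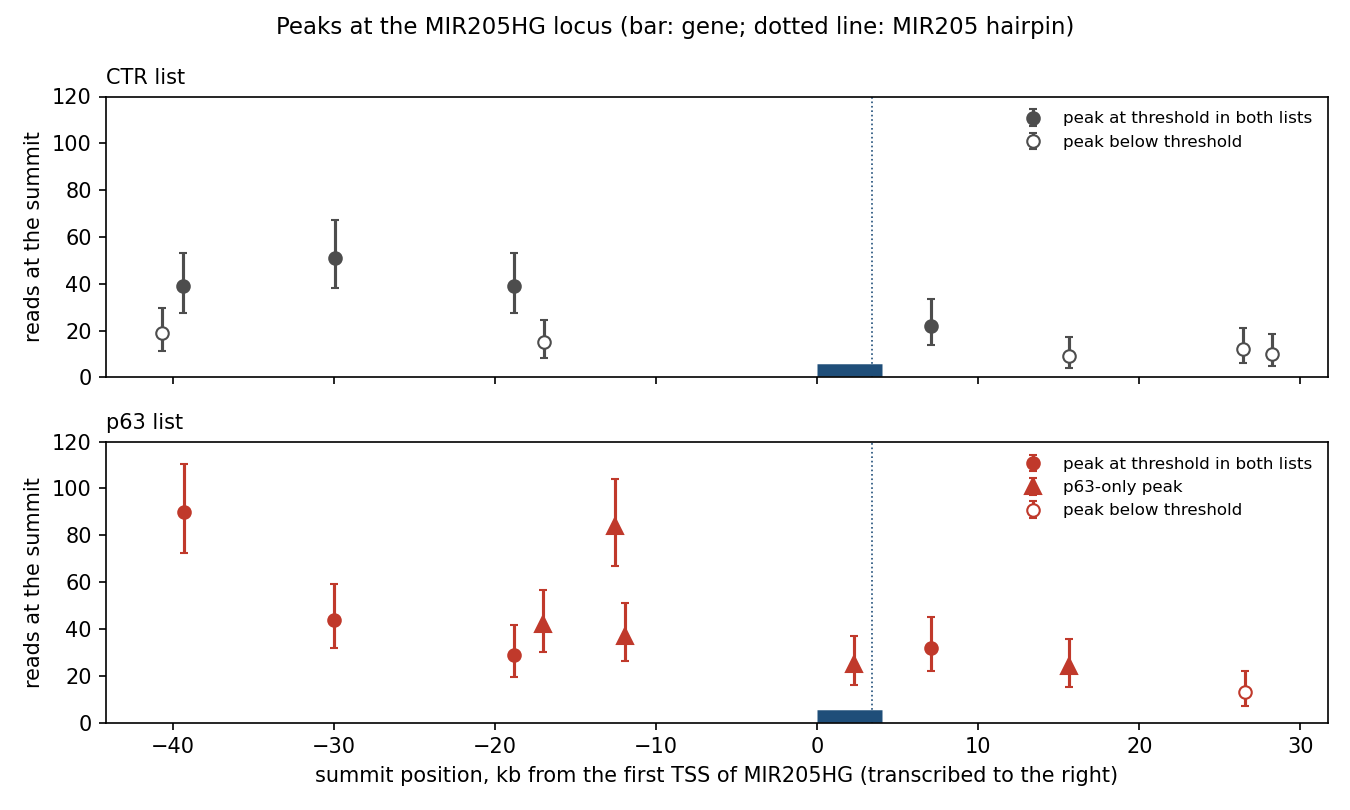
Reads at the summit of each deposited peak at the MIR205HG locus against its position in kb from the first TSS, for the CTR list (upper panel) and the p63 list (lower panel), with exact 95% Poisson intervals. The p63-only peaks (triangles) had 24 to 84 reads and lay on both sides of the gene and within it, and the outermost shared peak had 39 reads in CTR and 90 in p63.

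The strongest p63-only peak of all hosts lay 12586 bp upstream of MIR205HG, at chr1:209415852-209416565. It had 84 reads (67.0 to 104) at a −log10 q of 57.3 with 10.96 as the deposited fold enrichment, and the CTR list had no peak there. A second absent peak followed close downstream, at chr1:209416721-209417029, with 37 reads (26.1 to 51.0) and a −log10 q of 15.88. The last absent peak, chr1:209430872-209431269, lay inside the gene, 1524 bp from a TSS and 864 bp from the MIR205 hairpin, with 25 reads (16.2 to 36.9) and a −log10 q of 13.24. Its summit was intronic in 14 and exonic in 2 of the 16 transcripts that span it. This was the only p63-only peak within 3 kb of a TSS of any of the 6 hosts, and in the CTR list the peak nearest to the hairpin was 3363 bp away.

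The remaining p63-only peaks of MIR205HG were present below the threshold in the CTR list. At 17008 bp upstream (chr1:209411568-209412126) the summit had 15 reads (8.4 to 24.7) in the CTR list and 42 (30.3 to 56.8) in the p63 list, a ratio of 2.93 (1.59 to 5.68). The local background there was 2.40 reads in CTR and 6.71 in p63, and the deposited fold enrichment only 4.71 and 5.58. At 14896 bp downstream of the nearest TSS (chr1:209444173-209444800) the summit had 9 reads (4.1 to 17.1) and 24 (15.4 to 35.7), a ratio of 2.79 (1.25 to 6.81). There the fold enrichment was 4.59 and 9.51. The intervals of the reads did not overlap between the lists in the first of these regions and overlapped in the second. Both regions were named p63-only from the −log10 q of the same summits, so ratios above 1 follow largely from that choice. The ratios and intervals describe these regions and are no separate evidence of a difference.

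The shared regions of MIR205HG did not all move together. The outermost one, chr1:209389093-209389780, 39344 bp upstream, had 39 reads (27.7 to 53.3) in the CTR list and 90 (72.4 to 110.6) in the p63 list, which is the highest p63/CTR ratio among the 31 shared regions of the hosts, 2.41 (1.64 to 3.61). A ratio of 2 or more was found for 2.1% of all shared peaks. The deposited fold enrichment of this outermost region was 11.59 in CTR and 17.93 in p63. The remaining shared regions are given for completeness, including 2 that the rule for named peaks did not select. The region at chr1:209398370-209399271 had 51 and 44 reads (ratio 0.90, 0.59 to 1.38), and the region at chr1:209409892-209410243 had 39 and 29 reads (0.78, 0.46 to 1.29). Downstream of the gene, chr1:209435605-209435952 had 22 and 32 reads (1.52, 0.86 to 2.74). These last 3 regions differed by less than counting error. The higher coverage was therefore seen at some positions of the locus, next to positions without a measurable difference.

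MIR200CHG (ENSG00000257084.2, chr12:6963226-6964447, plus strand) carries miR-200c and miR-141 and lies in a region dense with other genes. It had 8 open CTR peaks, all shared, and 9 open p63 peaks. Most of them lay at promoters of neighbours, among them ENO2, ATN1, C12orf57 and PHB2, and the strongest in both lists was the PHB2 promoter, 7.57 kb downstream of the MIR200CHG start, with 97 reads in CTR and 96 in p63. The region nearest to the MIR200CHG TSS was chr12:6961179-6962273. It had 32 reads (21.9 to 45.2) in the CTR list and 37 (26.1 to 51.0) in the p63 list, a ratio of 1.21 (0.73 to 2.0). The summit lay 1838 bp upstream of the TSS in CTR and 1072 bp upstream in p63. The CTR summit was slightly closer to a TSS of PTPN6 (1812 bp). The region ended upstream of the MIR200CHG start, and no deposited peak of either list covered that start. A region within 3 kb of the TSS was thus open in both groups, with a difference within counting error, but the start itself was not in a peak.

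The single p63-only peak at MIR200CHG, chr12:6927635-6928362, lay 35480 bp upstream and 213 bp from a TSS of ATN1. It had 35 reads (24.4 to 48.7), and 24 (15.4 to 35.7) in the CTR list, where its −log10 q of 5.58 was below the threshold. The ratio of 1.52 (0.88 to 2.68) did not exceed counting error. A further p63 peak, chr12:6965156-6965309, lay 965 bp from the MIR141 hairpin and had 24 reads and a −log10 q of 8.32. It was below the threshold and had no CTR counterpart.

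MIR34AHG (ENSG00000228526.8, chr1:9148011-9198906, minus strand) is the host of miR-34a, a microRNA induced directly by p53. It had 7 open peaks in each list and no p63-only peak. The start site region used by RefSeq and by the overlapping gene LNCTAM34A, chr1:9181889-9182988, was below the threshold in both lists, with 13 reads (6.9 to 22.2) in the CTR list and 14 (7.7 to 23.5) in the p63 list. The flanking regions within 3 kb of an inner TSS had 17 and 12 reads (chr1:9181211-9181734) and 15 and 17 reads (chr1:9180322-9180650), also below the threshold in both. Near the outer TSSs, 2 regions were open in both lists, chr1:9196357-9196912 with 25 and 26 reads and chr1:9201369-9202709 with 36 and 29. None of these 5 promoter regions differed beyond counting error.

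The strongest regions at MIR34AHG were the promoter of H6PD, with 77 reads in CTR and 63 in p63, and an intronic region, chr1:9162956-9164656, with 75 and 68. The CTR-only peak, chr1:9169679-9169943, was intronic and had 19 reads in CTR and 11 in p63 (ratio 0.60, 0.26 to 1.34). The hairpin of MIR34A lay 11258 bp from the nearest open CTR peak and 11179 bp from the nearest open p63 peak.

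MIR31HG (ENSG00000171889.7, chr9:21380073-21559891, minus strand), the host of miR-31, spans 179819 bp among the interferon alpha genes. Its promoter, chr9:21558849-21560346, was open in both lists, with 43 reads (31.1 to 57.9) in CTR and 49 (36.3 to 64.8) in p63, a ratio of 1.19 (0.77 to 1.84). The strongest peak of both lists lay 31923 bp upstream, chr9:21591487-21592142, with 78 and 69 reads. Within 3 kb of inner TSSs, 2 weak regions were below the threshold in both lists, with 13 and 8 reads (chr9:21454208-21454533) and 15 and 13 reads (chr9:21455426-21455801). The main promoter and the strongest distal region were thus open with and without ΔNp63α.

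MIR31HG was also the host with the most CTR-only peaks, 3 of 7 (42.9%, 15.8 to 75%), against 16.5% of all open CTR peaks. This interval too treats neighbouring peaks as independent, and no conclusion is drawn from it. The absent peak, chr9:21465888-21466203, was intronic and had 21 reads (13 to 32.1) and a −log10 q of 17.42. At chr9:21392263-21392651, also intronic, there were 20 reads (12.2 to 30.9) in CTR and 8 in p63, a ratio of 0.42 (0.16 to 0.99). At chr9:21605453-21606052, 45808 bp upstream, there were 18 and 12 reads (0.70, 0.31 to 1.53). The p63-only peak, chr9:21449438-21449663, was intronic with 17 reads, and 13 reads in the CTR list (1.37, 0.62 to 3.06). All 4 peaks had few reads, and the ratio interval of a single region lay below 1, by a narrow margin. The peaks were named list-only from the −log10 q of the same summits, so the direction of these ratios follows largely from that choice. The MIR31 hairpin was more than 36 kb from an open peak in both lists, 36974 bp (CTR) and 37055 bp (p63).

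MIR17HG (ENSG00000215417.14, chr13:91347686-91397592, plus strand) had 2 open CTR peaks and 1 open p63 peak. Its promoter region, chr13:91347309-91349362, more than 2 kb wide, was shared, with 56 reads (42.3 to 72.7) in the CTR list and 68 (52.8 to 86.2) in the p63 list, a ratio of 1.27 (0.88 to 1.84). The 6 hairpins lay 1243 to 1952 bp downstream of the CTR peak and 1248 to 1957 bp downstream of the p63 peak. The CTR-only peak, chr13:91398517-91398989, lay 143 bp from a TSS of GPC5, a cell surface proteoglycan gene, and had 17 reads in CTR and 11 in p63 (0.68, 0.29 to 1.53).

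MIR22HG (ENSG00000186594.16, chr17:1711447-1717174, minus strand) starts opposite WDR81, and the region chr17:1716185-1717688 covered the starts of both genes. It had 79 reads (62.5 to 98.5) in CTR and 80 in p63, a ratio of 1.06 (0.77 to 1.46), the highest coverage of any promoter region of the 6 hosts. A second region in an intron, chr17:1714667-1715481, had 54 and 58 reads and lay 743 bp (CTR) and 694 bp (p63) from the miR-22 sequences, which are exonic in 30 of 32 transcripts. Both of these regions differed by less than counting error between the groups.

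By −log10 q the strongest CTR peak around MIR22HG was the promoter of the splicing factor gene PRPF8 (chr17:1684198-1685251), with 44 and 48 reads (ratio 1.14, 0.74 to 1.76). Of the 12 regions at MIR22HG 2 were CTR-only, chr17:1752768-1753212 with 17 and 15 reads and chr17:1763036-1763404 with 20 and 18. The p63 list had a peak at each of them with a −log10 q of 9.49 and 9.23, just below the threshold, and neither ratio (0.92 and 0.94) exceeded counting error. At the outer edge of the window a shared region, chr17:1764323-1764799, 1595 bp from a TSS of SERPINF1, had 24 reads in CTR and 47 in p63, a ratio of 2.05 (1.23 to 3.50). SERPINF1 encodes a secreted protein known as an inhibitor of vessel growth, and this region held the strongest p63 peak around MIR22HG by −log10 q (42.04).

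**Figure D3:**
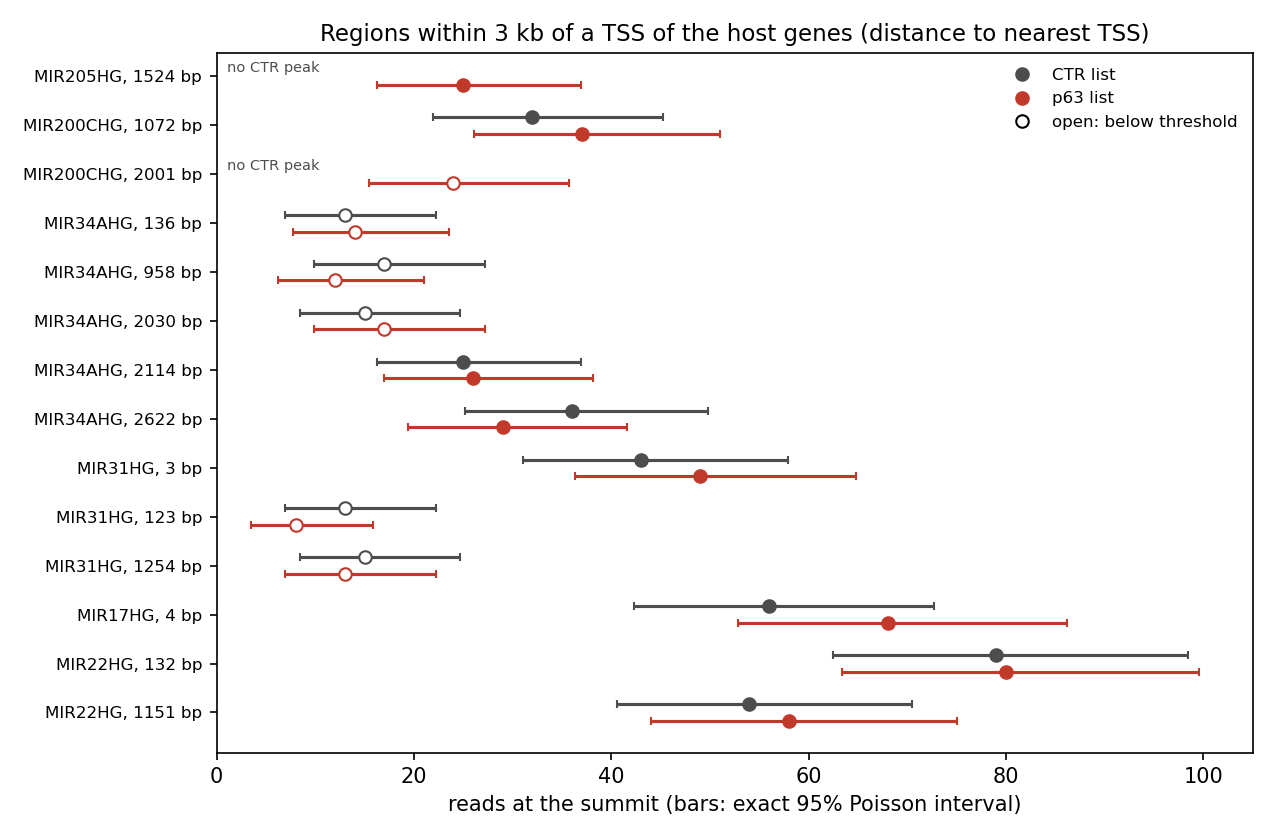
Reads at the summit of the 14 regions within 3 kb of a TSS of a host gene, in the CTR (grey) and p63 (red) list, with exact 95% Poisson intervals and open symbols for peaks below the threshold; each row gives the distance of the stronger peak's summit to the nearest TSS. The intervals of both lists overlap in the 12 regions with a peak in both, and the region at MIR205HG and 1 of those at MIR200CHG have no CTR peak.

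The region within 3 kb of a TSS with the most summit reads can be set side by side for the 6 hosts. In p63 it had 80 reads at MIR22HG, 68 at MIR17HG, 49 at MIR31HG, 37 at MIR200CHG, 29 at MIR34AHG and 25 at MIR205HG. In CTR it had 79 reads at MIR22HG, 56 at MIR17HG, 43 at MIR31HG, 36 at MIR34AHG and 32 at MIR200CHG, and MIR205HG had no peak. MIR200CHG and MIR34AHG changed places between the lists, and the intervals of neighbours in either order overlapped. Reads are not scaled by local background, which in p63 was 13.53 reads at MIR22HG and 2.95 at MIR205HG. The deposited fold enrichment of the same regions gave another order. By it MIR22HG was lowest, at 5.23 in CTR and 5.58 in p63, and MIR31HG highest, at 9.88 and 10.87. MIR205HG had 6.58 in p63. The RefSeq promoter windows of 300 bases around the annotated start also set MIR205HG apart. Its window had a GC content of 50.3% and 1 CpG, against 65.7 to 77.7% and 10 to 42 CpGs at the other 5 hosts.

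**Figure D4:**
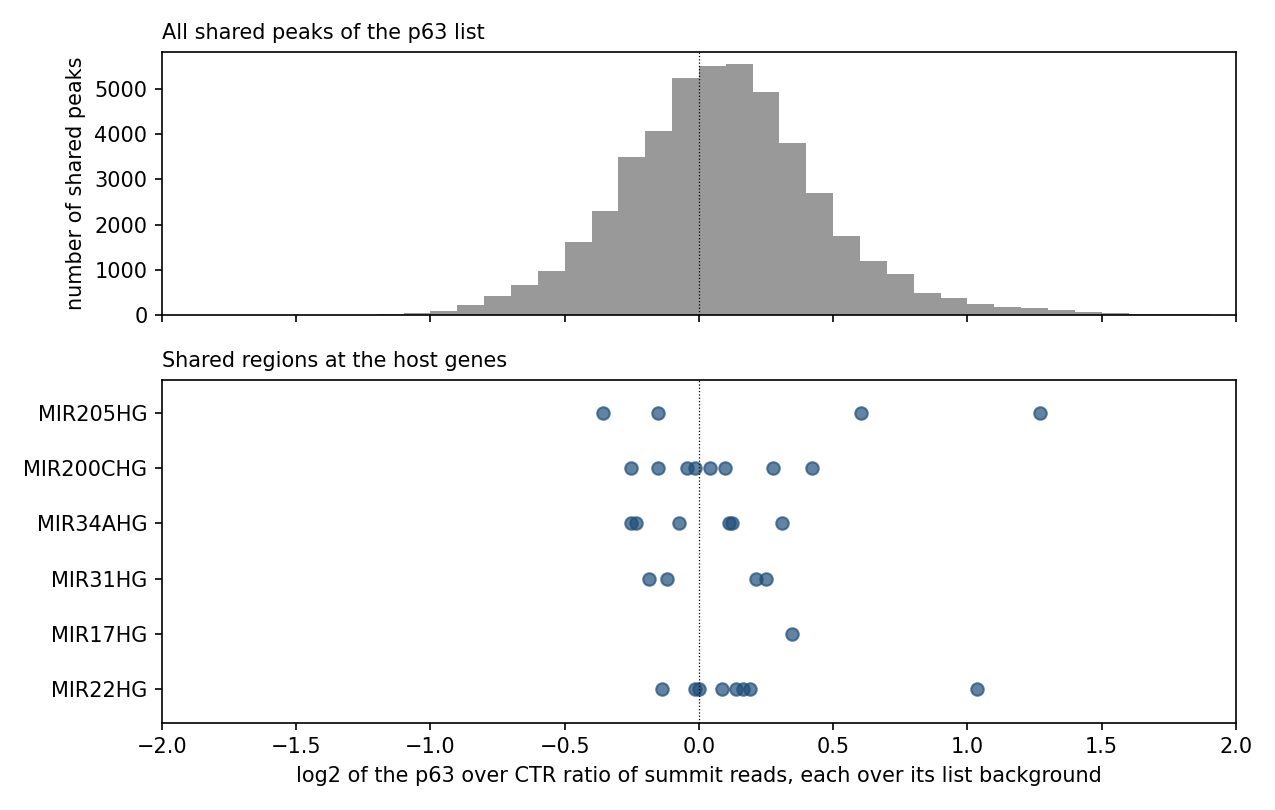
Log2 of the p63/CTR ratio of summit reads for all 47412 shared peaks (histogram, upper panel) and for the 31 shared regions of the hosts (points, lower panel). The hosts' regions have a median ratio of 1.06 and range from 0.78 to 2.41, and the points above a log2 ratio of 1 are 1 region of MIR205HG and 1 of MIR22HG.

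Over all 31 shared regions the p63/CTR ratio had a median of 1.06, against 1.045 for all shared peaks. It ranged from 0.84 to 1.34 at MIR200CHG, from 0.84 to 1.24 at MIR34AHG and from 0.88 to 1.19 at MIR31HG. At MIR22HG it ranged from 0.91 to 2.05, and at MIR205HG from 0.78 to 2.41. The shared peaks of the p63 list at the hosts lay at promoters of any gene in 22 of 32 cases, against 43.6% of all shared p63 peaks. The p63-only peaks lay at promoters in 2 of 7 cases, against 26% of all p63-only peaks, and in intergenic sequence in 4 of 7, all at MIR205HG, against 28%. The CTR-only peaks lay within genes in 4 of 7 cases, against 47.9% of all CTR-only peaks, and at promoters in 2 of 7, against 24.5%. The summit reads of the p63-only peaks ranged from 17 to 84 (median 35), and those of the CTR-only peaks from 17 to 21 (median 19).

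The sequence within 100 bp of each summit was searched for the p53/p63 family site, a 20 bp motif made of a repeated decamer, in which the C and G of each core had to match and up to 3 of the remaining 16 positions could differ. Of the 7 p63-only peaks 1 had such a site, against 11.4% of all p63-only peaks. It lay at MIR205HG, at chr1:209411823-209411842, 23 bp from the summit, with 3 mismatches, and it lay 18 bp from the summit of the CTR peak below the threshold. The sequences of the 3 upstream p63-only peaks of MIR205HG are shown because this site and the strongest peak of the hosts are among them. They are printed from GRCh38, plus strand, with the 20 bases closest to the site in capitals.
Summit of chr1:209411568-209412126, window chr1:209411709-209411909, 3 mismatches: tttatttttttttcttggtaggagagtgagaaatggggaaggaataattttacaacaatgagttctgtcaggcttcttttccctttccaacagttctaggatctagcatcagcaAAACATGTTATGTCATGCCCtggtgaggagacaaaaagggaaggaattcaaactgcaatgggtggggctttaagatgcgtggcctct
Summit of chr1:209415852-209416565, window chr1:209416131-209416331, 5 mismatches: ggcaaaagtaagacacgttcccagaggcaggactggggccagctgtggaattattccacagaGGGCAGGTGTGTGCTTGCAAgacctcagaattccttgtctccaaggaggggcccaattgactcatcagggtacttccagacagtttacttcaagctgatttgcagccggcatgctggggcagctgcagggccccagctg
Summit of chr1:209416721-209417029, window chr1:209416750-209416950, 4 mismatches: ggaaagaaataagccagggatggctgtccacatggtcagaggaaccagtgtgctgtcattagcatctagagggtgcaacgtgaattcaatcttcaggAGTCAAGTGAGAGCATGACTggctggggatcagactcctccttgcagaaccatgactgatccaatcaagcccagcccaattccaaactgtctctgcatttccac
The capitals in the last 2 windows exceed the mismatch limit and are not counted as a site. The intragenic p63-only peak near the MIR205 hairpin had 6 mismatches at its closest 20 bases, also above the limit.

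The AP-1 motif (TGACTCA or TGAGTCA, both strands) occurred beside the summit, in the same window, in 3 of 7 p63-only peaks of the hosts, among them the strongest one, against 22% of all p63-only and 26.4% of all shared peaks of the p63 list. The KLF motif (GGGCGGGGC, GGGCGTGGC, GGGTGGGGC or GGGTGTGGC, both strands) was found in 1 of 7, in the window with the p63 site, against 4.07% of all p63-only and 8.11% of all shared peaks. The CTR-only peaks held the AP-1 motif in 1 of 7 and the KLF motif in 2 of 7, and no share over all CTR-only peaks was computed. The counts of the p63-only peaks are too small to set apart from the shares over the p63 list.

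Sites outside of the peaks were counted for comparison. The 6 loci together span 779.4 kb and held 46 p53/p63 family sites with at most 3 mismatches, 8 at MIR205HG, 9 at MIR200CHG, 9 at MIR34AHG, 8 at MIR31HG, 3 at MIR17HG and 9 at MIR22HG. Of these 1 lay in a CTR peak and 2 in p63 peaks of any −log10 q, so most sites lay outside of the deposited peaks in both groups. The share of the loci that peaks cover was not computed, so these counts do not show whether peaks hold more or fewer sites than other sequence. Only 1 site had fewer than 2 mismatches. It matched at all positions and lay at MIR34AHG, 16.75 kb inside the outermost TSS and next to the inner start site. It is shown, in GRCh38, with the cores in capitals, because a full match lay at a host without a p63-only peak.
Site at MIR34AHG, chr1:9182144-9182163: gaaCAAGcccaggCAAGccc
This site was covered by the p63 peak chr1:9181889-9182948, which had 14 reads and a −log10 q of 5.30, below the threshold, and it lay 103 bp from the summit. The CTR peak of the same region did not reach it. The RefSeq promoters of the 6 hosts held no site, with 6 to 9 mismatches at best, whereas 1.12% of 35116 RefSeq promoters held a site.

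The genes that process microRNAs and the best known targets of miR-200 and miR-205 were examined by the same rule. All 10 processing genes, from the nuclear nuclease DROSHA to the effector genes AGO1 to AGO4, had an open promoter in both lists. No share over all genes was computed for open promoters. Around the processing genes 8 of 51 p63 peaks were p63-only (15.7%), against 23.9% of all open p63 peaks. Of 46 CTR peaks 3 were CTR-only (6.52%), against 16.5% of all open CTR peaks. The promoter of DICER1, which cuts the hairpin in the cytoplasm, had 58 reads in CTR and 59 in p63. ZEB1 and ZEB2 were open at their promoters in both lists, with 52 and 41 reads at the strongest peak of ZEB1 and 56 and 61 at that of ZEB2. Around both genes together 2 of 9 peaks were list-only in each list (22.2%), against 23.9% of all open p63 and 16.5% of all open CTR peaks. Both p63-only peaks lay within 3 kb of a TSS, 1309 bp away at ZEB1, with 16 reads and no CTR peak, and 96 bp away at ZEB2, with 35 reads and a CTR peak below the threshold. Neither CTR-only peak lay within 3 kb of a TSS of these genes.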

How the data were processed

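BJ fibroblasts of 2 groups (CTR and p63, 2 replicates each) had been profiled by ATAC-seq. Per the labels and the study's methods, the authors mapped reads to hg38 with Bowtie2 2.3.4.3 and used MACS2 on the replicates of each group together. The MACS2 version and options, duplicate removal, the transposase shift and excluded regions are not given in the sources used here. Each of the deposited lists gives per peak a score, a fold enrichment (a ratio of summit pileup to local background, taken here with 1 added to each), −log10 p, −log10 q and the summit's offset. Depth per sample is unknown.

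Peaks were analysed with Python 3.11.15, pandas 2.3.3, numpy 2.4.6, scipy 1.17.1 and pysam 0.24.0, and plotted with matplotlib 3.10.9. The −log10 q threshold of 10 is the study's, and lists were matched by 1 bp of overlap. Whole summit reads were solved from fold enrichment and −log10 p within 0.001, which failed for 7 CTR and 8 p63 peaks. The solver, overlaps and motif search were tested on simulated data. A merged region took the strongest peak of each list. Read intervals are exact Poisson, ratio intervals derive from Clopper-Pearson intervals, and reads may include PCR duplicates. Named peaks lay within 3 kb of a host's TSS, were the strongest of their list, list-only, or held a p63 site; 2 more shared regions of MIR205HG were named after their values were seen. Hosts, gene lists and alternatives were chosen with earlier results of these data known. Alternatives were other thresholds, windows, overlap rules, list sizes and site limits. Merging of regions and leaving out MIR205HG were added after seeing the data.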

Additional observations from a re-analysis of the deposited data

How the results depend on the processing

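The counts at the hosts were recomputed under 48 combinations of result and alternative. In 22 the count stayed within 1.5 times the reported value and in 26 it did not. The counts of 38 CTR and 39 p63 peaks became 61 and 64 with all deposited peaks, 17 and 20 at a −log10 q of 20, 16 and 16 with a window of 10 kb, and 65 and 72 with a window of 100 kb. The 7 p63-only peaks became 2 with a window of 10 kb, 15 with 100 kb, 3 when any deposited CTR peak counted as a match, and 2 without MIR205HG. The 7 CTR-only peaks became 2 at a −log10 q of 20, 3 with a window of 10 kb and 1 when any deposited p63 peak counted as a match. The 3 hosts with a p63-only peak became 5 with all deposited peaks, 5 with a window of 100 kb, 5 with a mutual overlap of 50%, and 1 when any deposited CTR peak counted as a match. The single p63-only peak with a p63 site became 0 with all deposited peaks, 0 at a −log10 q of 20, 0 with a window of 10 kb, 0 when any deposited CTR peak counted as a match, 0 without MIR205HG, 3 with a window of 100 kb and 2 with at most 4 mismatches. Equal list sizes left all 4 counts of list-only peaks within 1.5 times. The balance between the lists depended on these choices. The p63 list had 1 peak more than the CTR list as reported, as many with a window of 10 kb and fewer without MIR205HG (30 against 34). The equal numbers of p63-only and CTR-only peaks became 15 against 9 with a window of 100 kb, 5 against 2 at a −log10 q of 20 and 3 against 1 when any deposited peak counted as a match, but 2 against 7 without MIR205HG, 6 against 8 with equal list sizes and 2 against 3 with a window of 10 kb.

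No paired analysis was possible because each list pools both replicates of its group, and for the same reason no replicate could be left out. A difference between the groups cannot be told apart from one between these pooled libraries. At the threshold no peak had fewer than 15 reads at its summit. Weaker peaks, with 6 reads or more, were deposited and are left out of the counts of open peaks by the threshold. The −log10 q depends on depth, so depth, which is unknown per sample, can affect which peaks pass.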

Other observations

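The other microRNA genes of both families were examined by the same rule. MIR34BHG (ENSG00000286028.1, chr11:111510600-111513888, plus strand), the host of miR-34b and miR-34c, had a p63-only peak at its start that was absent from the CTR list. Some hosts outside of both families also had a p63-only promoter peak and are named below. The peak, chr11:111510327-111510630, had its summit 80 bp from the TSS, with 41 reads (exact 95% Poisson interval 29.4 to 55.6, counting error only) at a −log10 q of 41.15, and 16.73 as its deposited fold enrichment. A p53/p63 family site with 2 mismatches lay inside it. It is shown, in GRCh38, with the cores in capitals, because it is the counterpart of the site at MIR34AHG.
Site at MIR34BHG, chr11:111510541-111510560: aggCATGcctagaCATGaac
The mature miR-34b-5p from this host has the seed AGGCAGU, which is offset by a base from the GGCAGUG of miR-34a-5p. The start of MIR34BHG was thus open in the p63 list, whereas the MIR34AHG start with a full match to the site was below the threshold in both.

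Of the 5 other epithelial microRNA genes (MIR200A, MIR200B, MIR429, MIR203A and MIR203B) none had an open peak within 3 kb of its start in either list. Around them 1 of 5 p63 peaks was p63-only, against 23.9% of all open p63 peaks. It lay at chr1:1217949-1218286, 49083 bp from MIR429, with 17 reads and a p63 site. Of 4 CTR peaks 0 were CTR-only, against 16.5% of all open CTR peaks. In the p53 family list, which holds MIR34B and MIR34C, 6 of 10 other genes had a p63-only peak, against 47.3% of all annotated genes. Around this list 6 of 37 p63 peaks were p63-only (16.2%), against 23.9% of all open p63 peaks. Of 33 CTR peaks 1 was CTR-only (3.03%), against 16.5% of all open CTR peaks. Neighbouring genes of this list shared peaks, and each peak was counted once. The 6 genes were the neighbours MIR34B and MIR34C, MIR143 and MIR145, and MIR192 and MIR194-2, so they are not 6 separate loci.

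Around the 78 other annotated genes whose symbol marks a microRNA host, 104 of 428 p63 peaks were p63-only (24.3%) and 63 of 387 CTR peaks were CTR-only (16.3%). These shares were close to the 23.9% and 16.5% of the whole lists. Of the 78 genes 6 had 5 or more p63-only peaks, as MIR205HG had, against 1.39% of all annotated genes. No allowance was made for gene length. They were MIR3681HG, MIR4435-2HG and MIR4713HG with 7 each, MIR100HG with 6, and MIR583HG and MIR9-3HG with 5 each. At MIR100HG 2 of the p63-only peaks were promoter peaks absent from the CTR list, with 24 and 15 reads. Besides MIR34BHG and MIR100HG, p63-only promoter peaks lay at MIR3681HG, MIR3936HG, MIR4300HG, MIR4432HG, MIR5689HG and MIR9-3HG. At MIR3681HG and MIR4432HG such a peak also held a p63 site and was absent from the CTR list. CTR-only promoter peaks lay at MIR130AHG, MIR2117HG, MIR3663HG, MIR4435-2HG, MIR583HG, MIR9-1HG and MIR99AHG.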
